A study of Mus musculus with 3 samples.

Results

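Convergent CDR3s of the T-cell receptor (TCR) β chain were CDR3s that several different nucleotide sequences encoded within the same library. They were chosen by the values in the clonotype tables: at least 2 in-frame TRB clonotypes of a library, each with 2 or more reads, had to give the same amino acid CDR3, V gene and J gene with different nucleotide sequences. By this rule 473 of the 15561 CDR3s of CD4 T cells were convergent, 1059 of the 23249 of CD8 T cells and 478 of the 16622 of DN T cells. Over the 3 libraries this came to 1837 different convergent CDR3s of 49277 in all. Because reads, sequences and genes of the same tables chose the members, their V and J use, length and size are descriptions and were not tested.

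The CDR3 is the loop of the TCR that is made anew in each developing T cell and that contacts the peptide held by an MHC molecule. In the thymus the V(D)J recombinase joins a V, a D and a J segment of the β chain locus, exonucleases trim the segment ends, and terminal transferase adds bases without a template. The genetic code is redundant, so separate joining events can end in the same protein, and this is called convergent recombination. Convergence is commonly described for receptors that several individuals share and for receptors that need few added bases.

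The 3 libraries came from the spleen of 1 MRL.lpr mouse aged 16 weeks, with no treatment given in the labels. MRL.lpr is a lupus-prone strain in which the lpr mutation disables the death receptor Fas, and T cells that carry a TCR but neither CD4 nor CD8, the double-negative or DN T cells, accumulate. CD4, CD8 and DN T cells were sorted by flow cytometry, 1000000 cells were taken of each, and their mRNA was made into 1 library per subset with a kit that copies TCR mRNA. All groups share the mouse, the strain and the age, and there was neither a second animal nor a strain without lpr. A difference between 2 libraries therefore has no replicate check, and intervals given here are 95% Wilson intervals that cover counting error only. Reads had no molecular identifiers, so many cells and much mRNA per cell cannot be told apart. Clonotypes of the same CDR3 were counted separately and are not independent, so intervals over clonotypes are too narrow.

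In-frame TRB clonotypes with 2 or more reads, over which all shares were taken unless stated, numbered 16143 with 101580 reads in CD4, 24564 with 92549 reads in CD8 and 17184 with 164131 reads in DN T cells. The minimum of 2 reads kept 39.1%, 31.8% and 45.0% of the in-frame clonotypes of CD4, CD8 and DN T cells, so the libraries differed in depth per clonotype. The libraries also shared clonotypes with identical nucleotide sequence, and how far carry-over of cells or molecules accounted for this was not tested.

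The sequences behind 4 of these CDR3s show what convergence was at the nucleotide level. They are printed because they had the most sequences in a library or in all 3 together. Capitals mark the bases that differed between the sequences of a CDR3, and the order is by reads over the libraries in which a sequence had at least 2. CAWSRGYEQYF, with TRBV31 and TRBJ2-7, had the most sequences of any CDR3 in CD4 T cells:
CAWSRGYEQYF sequence 1: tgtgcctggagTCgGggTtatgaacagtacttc
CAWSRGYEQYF sequence 2: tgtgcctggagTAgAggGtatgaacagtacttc
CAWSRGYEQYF sequence 3: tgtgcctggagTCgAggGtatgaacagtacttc
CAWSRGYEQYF sequence 4: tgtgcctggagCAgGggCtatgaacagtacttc
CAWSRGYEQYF sequence 5: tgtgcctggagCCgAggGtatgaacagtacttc
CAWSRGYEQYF sequence 6: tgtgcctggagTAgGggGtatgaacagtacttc
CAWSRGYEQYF sequence 7: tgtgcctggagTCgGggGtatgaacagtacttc
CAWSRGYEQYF sequence 8: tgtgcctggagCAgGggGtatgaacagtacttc
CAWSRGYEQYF sequence 9: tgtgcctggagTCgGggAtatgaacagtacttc

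These 9 sequences differed at 4 of 33 bases, which lay in the codons of serine, arginine and glycine in the middle of the loop. All 9 reached 2 reads in CD4 T cells, with between 2 and 23 reads each and 80 reads in all. In DN T cells 2 of them reached 2 reads, with 8 reads together. In CD8 T cells no sequence of it reached 2 reads, and 5 sequences had a single read each. The 9 sequences were thus largely a feature of the CD4 library.

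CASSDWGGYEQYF, with TRBV13-1 and TRBJ2-7, was 1 of 3 CDR3s with 6 sequences in DN T cells, the highest number there:
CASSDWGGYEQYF sequence 1: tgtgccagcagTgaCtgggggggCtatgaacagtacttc
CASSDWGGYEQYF sequence 2: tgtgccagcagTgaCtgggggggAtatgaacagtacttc
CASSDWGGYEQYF sequence 3: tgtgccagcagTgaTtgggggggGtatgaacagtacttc
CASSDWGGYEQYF sequence 4: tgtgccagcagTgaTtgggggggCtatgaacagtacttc
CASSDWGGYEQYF sequence 5: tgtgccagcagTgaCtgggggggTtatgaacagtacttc
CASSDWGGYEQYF sequence 6: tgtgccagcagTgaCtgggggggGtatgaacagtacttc
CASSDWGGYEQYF sequence 7: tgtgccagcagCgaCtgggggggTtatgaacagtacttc

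It had 6 sequences with 2 or more reads in DN T cells, 4 in CD8 and 3 in CD4, with 223, 21 and 13 reads. Sequences 3 and 5 were in CD8 T cells under TRBV13-3 and were not counted there. The third of its variable bases was the last base of a glycine codon, and all 4 bases occurred there. The codon is part of a run of aspartate, tryptophan and glycine (DWG) followed by another glycine, and TRBD2 was the D gene assigned to each of the 7 sequences. The consensus end of TRBV13-1 also holds the first bases of the aspartate codon, so which gene encoded this residue cannot be told from the assignment.

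A CDR3 of 14 residues with TRBV1 and TRBJ2-7 contained the same tripeptide and had the most sequences of the CDR3s that were convergent in all 3 libraries:
TRBV1 CDR3 sequence 1: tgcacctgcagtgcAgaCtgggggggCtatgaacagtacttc
TRBV1 CDR3 sequence 2: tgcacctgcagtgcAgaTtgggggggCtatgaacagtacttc
TRBV1 CDR3 sequence 3: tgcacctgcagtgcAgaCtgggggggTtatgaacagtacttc
TRBV1 CDR3 sequence 4: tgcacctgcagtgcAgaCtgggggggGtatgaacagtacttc
TRBV1 CDR3 sequence 5: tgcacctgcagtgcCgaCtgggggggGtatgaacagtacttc
TRBV1 CDR3 sequence 6: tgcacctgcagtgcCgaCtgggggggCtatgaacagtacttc
TRBV1 CDR3 sequence 7: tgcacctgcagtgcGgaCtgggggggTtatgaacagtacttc
TRBV1 CDR3 sequence 8: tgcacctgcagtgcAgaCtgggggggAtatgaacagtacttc
TRBV1 CDR3 sequence 9: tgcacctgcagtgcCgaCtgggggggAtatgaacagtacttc
TRBV1 CDR3 sequence 10: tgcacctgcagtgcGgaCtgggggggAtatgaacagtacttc
TRBV1 CDR3 sequence 11: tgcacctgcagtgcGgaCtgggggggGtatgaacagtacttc

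It had 11 sequences in all, of which 8 reached 2 reads in CD4 T cells, 3 in CD8 and 4 in DN, with 98, 19 and 66 reads. The first sequence was the only one of the 11 with at least 2 reads in all 3 libraries, at 32, 15 and 47 reads. The second had 46 reads in CD4, 2 in CD8 and none in DN T cells, where a count of 0 allows up to 0.00183% of the reads.

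Another CDR3 of 14 residues, with TRBV17 and TRBJ2-7, had the most sequences in CD8 T cells:
TRBV17 CDR3 sequence 1: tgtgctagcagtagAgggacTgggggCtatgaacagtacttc
TRBV17 CDR3 sequence 2: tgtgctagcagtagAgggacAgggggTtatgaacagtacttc
TRBV17 CDR3 sequence 3: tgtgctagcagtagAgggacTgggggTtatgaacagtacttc
TRBV17 CDR3 sequence 4: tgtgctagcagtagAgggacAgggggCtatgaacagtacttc
TRBV17 CDR3 sequence 5: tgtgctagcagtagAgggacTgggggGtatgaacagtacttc
TRBV17 CDR3 sequence 6: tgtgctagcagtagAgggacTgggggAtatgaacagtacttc
TRBV17 CDR3 sequence 7: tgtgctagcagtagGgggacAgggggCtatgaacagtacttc
TRBV17 CDR3 sequence 8: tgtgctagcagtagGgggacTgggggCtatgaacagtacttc
TRBV17 CDR3 sequence 9: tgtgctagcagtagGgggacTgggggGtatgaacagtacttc

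It had 7 sequences in CD8 T cells with 28 reads, 6 in DN with 32 reads and 2 in CD4 with 5 reads. In these sequences MiXCR gave TRBD2 where the variable base in the threonine codon was T and TRBD1 where it was A, so both D genes were assigned to the same protein.

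Convergent CDR3s made up 3.04% (2.78 to 3.32) of the CDR3s of CD4 T cells, 4.56% (4.29 to 4.83) of CD8 and 2.88% (2.63 to 3.14) of DN T cells. Counted by clonotypes, 6.54% (6.16 to 6.93), 9.66% (9.30 to 10.04) and 6.05% (5.71 to 6.42) were convergent. The clonotypes held 8.53%, 11.5% and 8.06% of the reads. CD8 T cells had the highest share on each of these counts. The number of possible pairs of clonotypes grows with the size of a library, and when it was taken into account the order changed. Among all pairs, 5.80 per 1000000 in CD4, 5.50 in CD8 and 4.64 for DN T cells encoded the same CDR3 with the same genes. Among pairs alike in V gene, J gene and length the values were 2.75, 2.32 and 1.49 per 1000. DN T cells were lowest and CD4 T cells highest on both pair measures.

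Most convergent CDR3s had only 2 sequences, namely 398 in CD4, 868 in CD8 and 419 for DN T cells. The 75, 191 and 59 others had 3 or more, with a maximum of 9, 7 and 6. Many members lay close to the threshold. The second largest sequence had exactly 2 reads in 247 CDR3s of CD4, 689 of CD8 and 268 of DN T cells. Just outside were 1053, 2054 and 1003 CDR3s in which the largest sequence had at least 2 reads and the next had 1.

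The sequences of a CDR3 differed by few bases. When each was set against the largest sequence of its CDR3, 52.2% of 582 pairs in CD4, 58.6% of 1315 in CD8 and 54.8% of 562 in DN T cells differed at 1 base. A further 31.6%, 31.2% and 32.9% differed at 2 bases, and the maximum was 5, 6 and 6. In 45.4%, 39.9% and 43.2% of the pairs the differences touched at least 2 codons. Single-base pairs in which the larger sequence had at least 10 times the reads, a pattern that a read error can give, numbered 28, 17 and 40, or 4.81%, 1.29% and 7.12% of the pairs. Convergent clonotypes had a median of 3 reads in each library, so many pairs could not reach this ratio. These numbers therefore set no upper limit on read errors.

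Differences lay almost entirely in the middle of the loop, which the rule largely requires. Sequences of a CDR3 share the V gene, the J gene and the amino acids. Their germline ends are therefore alike, and a difference cannot change a residue, so place and codon position are descriptions. Of the differing bases, 97.5% in CD4, 98.9% in CD8 and 98.7% for DN T cells fell between the first 3 and the last 4 residues, which the V and J genes encode in most CDR3s. The same held for pairs with a single differing base, at 295 of 304, 763 of 771 and 303 of 308. The third position of the codon carried 86.7%, 89.8% and 87.2% of the differing bases. Glycine, which any codon beginning with GG encodes and in which both D genes are rich, made up the most differing codons, at 33.1%, 36.1% and 39.2%. Relative to how often a residue occurred between the ends, glycine codons differed in 36.6%, 35.7% and 38.8% of cases, less often than those of arginine at 47.2%, 50.7% and 46.8% and of leucine at 45.3%, 55.1% and 57.8%. The sequences of a CDR3 were assigned to both TRBD1 and TRBD2 in 9.94%, 11.3% and 6.49% of the convergent CDR3s.

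**Figure D1:**
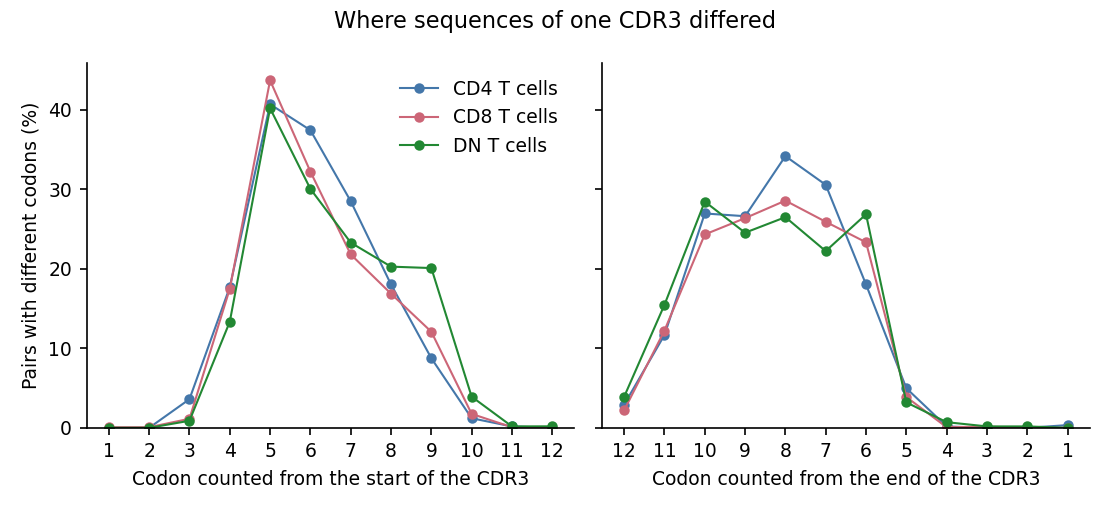
Percent of pairs of nucleotide sequences of a convergent CDR3 (582 in CD4, 1315 in CD8 and 562 for DN T cells) whose codons differed, by codon number from the start (left) and from the end (right) of the CDR3. Points are libraries. Codon 5 from the start differed most often, in 40.7% of pairs in CD4, 43.7% in CD8 and 40.2% for DN T cells, and codons 1 to 3 from the end almost never did.

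The profile by codon was broadly alike in the 3 libraries, with differences at some inner codons. Codon 9 from the start differed in 20.1% of pairs in DN T cells, in 12.1% in CD8 and in 8.76% in CD4. Members of DN T cells were longer on average, so this codon is not at the same distance from the J end. Counted from the end, codon 6 differed in 26.9% in DN, 23.3% in CD8 and 18.0% in CD4. For codon 8 from the end the order was turned, at 26.5%, 28.6% and 34.2%.

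Convergent clonotypes were on average slightly shorter than the others of their library. Medians were 13 against 14 residues in CD4 T cells, and 14 against 14 in both CD8 and DN. Convergent clonotypes had a mean length of 13.3 residues against 13.9 for the other clonotypes in both CD4 and CD8, and of 13.9 against 14.2 in DN T cells. The differences were -0.55, -0.53 and -0.38 residues, and lengths of members ran from 9 to 17. Only 0.190%, 0.253% and 0.769% of the convergent clonotypes had 17 or more residues, against 2.79%, 3.08% and 4.94% of the others. In CD4 and CD8 T cells the share of clonotypes that was convergent was highest at 11 residues, at 14.7% (12.2 to 17.6) and 15.7% (13.8 to 17.9). In DN T cells it was 8.64% (6.60 to 11.2) at 11 residues and again 8.13% (7.38 to 8.95) at 14 residues, with 6.23% (5.03 to 7.68) at 12.

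**Figure D2:**
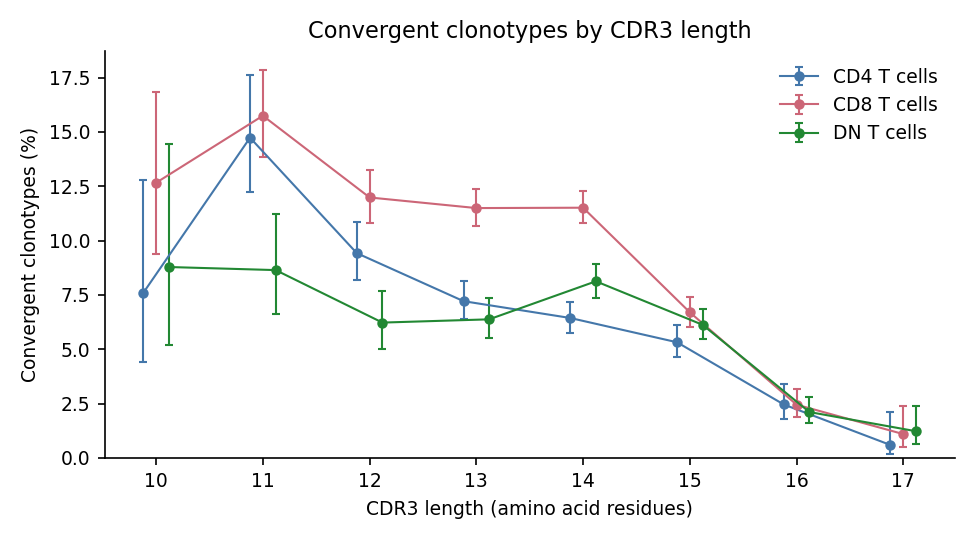
Percent of in-frame clonotypes that were convergent by CDR3 length in amino acid residues, for lengths 10 to 17 in the 3 libraries. Points are libraries and bars are 95% Wilson intervals. The share dropped to between 2.11% and 2.46% at 16 residues in all 3 libraries, and DN T cells had a second high value of 8.13% at 14 residues.

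The bases that neither end accounted for were fewer as well. Germline ends were approximated base by base, since germline sequences were not used here. Each next base was the most common among the clonotypes of a V or J gene that matched all earlier bases. By this measure 7.57 bases of a convergent clonotype matched neither end in CD4 T cells, 7.44 in CD8 and 9.002 for DN, against 9.79, 9.56 and 10.5 in the other clonotypes. At a fixed length of 14 residues the means were 8.28 against 9.85 in CD4, 8.84 against 9.64 in CD8 and 9.57 against 10.01 in DN T cells. By length the differences ran from -1.94 to 0.161 bases in CD4, from -1.79 to -0.80 in CD8 and from -2.20 to -0.41 in DN T cells over 11 to 16 residues, and the positive value was that of 16 residues in CD4.

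V genes differed in how often their clonotypes were convergent. A V gene with more clonotypes offers more possible partners, and these shares were not adjusted for that. Of the 13 V genes with at least 200 clonotypes in every library, TRBV31 (Vβ14 in the older names), TRBV13-2 (Vβ8.2) and TRBV13-1 (Vβ8.3) had the highest mean share over the libraries, at 10.1%, 9.46% and 8.66%. TRBV4 (Vβ10), TRBV19 (Vβ6) and TRBV29 (Vβ7) had the lowest, at 5.26%, 4.96% and 1.26%. For TRBV31 the share was 7.90% (6.60 to 9.44) in CD4, 15.5% (14.3 to 16.9) in CD8 and 6.78% (5.50 to 8.32) in DN T cells, so its rank came mostly from CD8. For TRBV13-2 it was 6.34%, 13.2% and 8.89%, and for TRBV13-1 it was 7.01%, 9.60% and 9.38%. For TRBV19 it was 2.18%, 8.62% and 4.09%. TRBV4 had 6.34%, 5.88% and 3.55%. TRBV29 was low in each library, with 0 of 230 clonotypes in CD4 (0 to 1.64), 18 of 713 in CD8 and 5 of 403 in DN T cells.

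**Figure D3:**
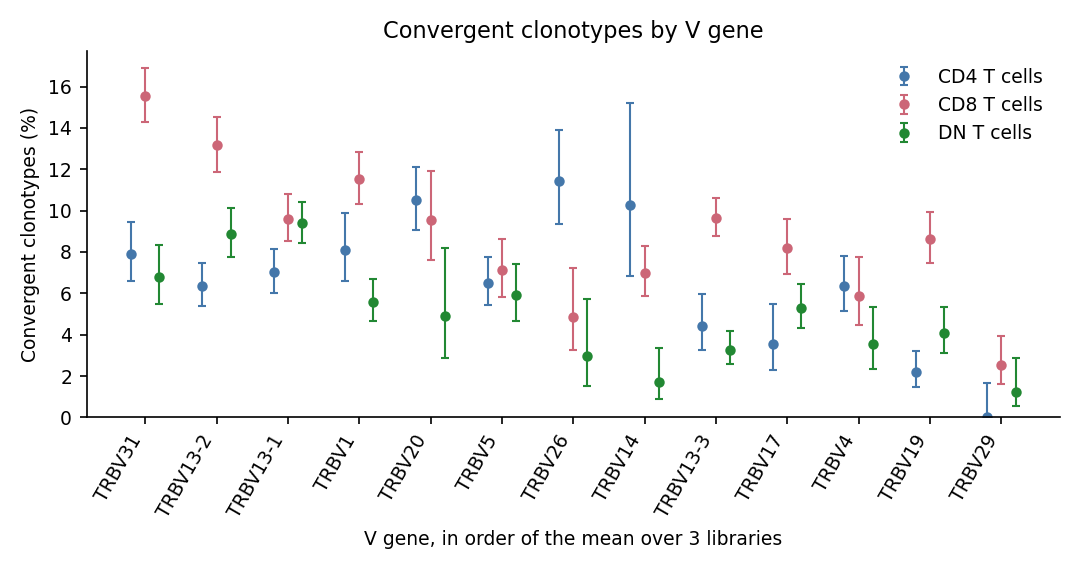
Percent of the in-frame clonotypes of a V gene that were convergent, for the 13 V genes with at least 200 clonotypes in every library, ordered by the mean of the 3 libraries. Points are libraries and bars are 95% Wilson intervals. CD8 T cells are highest for TRBV31 at 15.5%, and CD4 T cells are highest for TRBV26 at 11.4%.

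The V genes most enriched among the members differed by library, with some overlap. In CD4 T cells TRBV20 made up 15.8% of the convergent and 9.44% of the other clonotypes, and TRBV26 made up 8.15% and 4.42%. In CD8 T cells TRBV31 made up 19.3% and 11.2%, and TRBV26 only 0.969% and 2.02%. In DN T cells TRBV13-1 made up 30.5% and 19.0%, and TRBV13-2 made up 19.1% and 12.6%, and the latter was also more common among the members in CD8 T cells, at 13.7% and 9.67%. TRBV31 was more common among the members by 1.93 percentage points in CD4 and 0.907 in DN T cells as well. Several of these differences depended on the definition. With a minimum of 5 reads the difference in CD4 T cells was 0.243 percentage points for TRBV20 in place of 6.39, and that of TRBV31 in CD8 was 2.13 in place of 8.05. With the amino acid CDR3 alone they were 0.747 for TRBV20 in CD4, and in CD8 -0.85 for TRBV31 and 0.527 for TRBV26. Together with TRBJ2-7, TRBV20 gave 19 convergent CDR3s in CD4 T cells, TRBV13-2 gave 58 in CD8 and TRBV13-1 gave 61 in DN T cells. These were the V and J combinations with the most convergent clonotypes in each library.

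TRBJ2-7 was the leading J gene among the members. It made up 23.1% of the convergent and 17.2% of the other clonotypes in CD4 T cells, 33.6% and 20.6% in CD8, and 39.1% and 23.1% in DN. Of the TRBJ2-7 clonotypes, 8.60%, 14.9% and 9.85% were convergent. The lowest shares were those of TRBJ2-2 in CD4 T cells at 1.99%, and of TRBJ1-5 in CD8 and DN at 3.47% and 1.11%. As for V genes, these shares were not adjusted for the number of possible partners. TRBJ2-7 had the most clonotypes of the J genes in each library and TRBJ1-5 the fewest. In CD4 T cells TRBJ2-2 had 803 clonotypes and TRBJ1-5 had 456. TRBJ1-1 made up 12.5% of the convergent and 9.64% of the other clonotypes in CD4 T cells but 4.97% and 8.18% in CD8. For DN the values were 7.60% and 8.06%. The direction in CD4 T cells was not stable, with a difference of -2.36 percentage points at a minimum of 5 reads and of -0.0495 where at least 2 bases had to differ.

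The D gene separated the libraries further. TRBD2 was assigned to 23.9% of the convergent and 28.6% of the other clonotypes in CD4 T cells, to 36.3% and 31.8% in CD8, and to 53.7% and 39.4% in DN. TRBD1 was lower among the members in all 3 libraries, with 39.7% against 44.9%, 28.6% against 41.7% and 21.9% against 37.4%. No D gene was assigned to 36.4%, 35.1% and 24.4% of the convergent clonotypes, against 26.5%, 26.5% and 23.3% of the others. In the genome TRBD2 follows the TRBJ1 genes and joins TRBJ2 genes. Among clonotypes with a TRBJ2 gene alone, TRBD2 made up 34.9% (31.4 to 38.5) of the convergent and 41.8% of the other clonotypes in CD4 T cells. The values were 44.7% (42.5 to 46.9) and 43.2% in CD8, and 64.2% (60.9 to 67.3) and 52.7% in DN T cells. The TRBD2 difference of DN T cells was thus also present within TRBJ2, and that of CD8 T cells, over all TRBJ2 clonotypes, was within its counting error there. These shares include clonotypes without a D gene, which in CD8 were 30.7% of the convergent and 22.6% of the other TRBJ2 clonotypes. TRBD1 made up 24.7% and 34.2% of them in CD8. Shares among clonotypes with an assigned D gene alone were not computed. In DN T cells DWG was in 379 of the 1040 convergent and 1997 of the 16144 other clonotypes. TRBD2 was assigned to 95.8% and 95.7% of these. The TRBD2 difference therefore overlaps with that of DWG, and D gene use was not examined without DWG.

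The tripeptide DWG, seen in the sequences above and singled out after the members had been inspected, was much more common among convergent CDR3s of DN T cells. Between the first 3 and last 4 residues, 168 of 478 convergent CDR3s of DN T cells held it, or 35.1% (31.0 to 39.5), against 12.4% (11.9 to 12.9) of the other CDR3s. In CD8 T cells 157 of 1059 held it, or 14.8% (12.8 to 17.1), against 7.14% (6.81 to 7.49). In CD4 T cells 32 of 473 held it, or 6.77% (4.83 to 9.39), against 4.79% (4.46 to 5.14). CDR3s with DWG held 38.8% of the reads of the convergent clonotypes in DN T cells, 17.6% in CD8 and 6.83% in CD4. Seen from the other side, 7.76% of the CDR3s with DWG and 2.14% of those without it were convergent in DN T cells, against 9.01% and 4.19% in CD8 and 4.24% and 2.98% in CD4. Other short runs of residues with glycine were counted too, and DWG was picked from among them. In DN T cells convergent and other CDR3s held TGG in 4.60% and 4.19%, GTG in 5.44% and 4.66%, and DRG in 5.23% and 4.29%. For GG the values were 28.2% and 24.5%. LGG and GQG were less common among the members, at 2.51% against 4.42% and 0.837% against 2.13%.

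**Figure D4:**
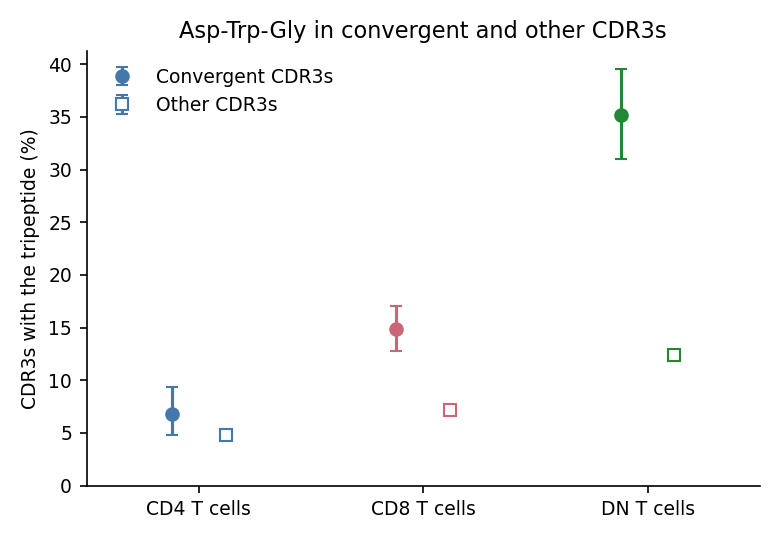
Percent of CDR3s with aspartate, tryptophan and glycine in a row between the first 3 and last 4 residues, among convergent CDR3s (filled circles) and other CDR3s (open squares) of the 3 libraries. Bars are 95% Wilson intervals, which are smaller than the symbols for other CDR3s. In DN T cells the values are 35.1% and 12.4%, and in CD4 T cells 6.77% and 4.79%.

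The difference in DN T cells was not limited to the V genes that led there. DWG was in 41.3% of the convergent and 14.95% of the other TRBV13-1 CDR3s, in 43.7% and 15.6% of those of TRBV13-2, in 21.2% and 9.34% of those of TRBV1, and in 30.6% and 11.4% of those of all other V genes. Among CDR3s of 13 or 14 residues it was in 39.6% and 8.81%. TRBD2 was assigned to 95.8% of the convergent clonotypes with DWG in DN T cells, 94.5% in CD8 and 94.6% in CD4. The tryptophan codon, the only codon of that residue, could not vary. The glycine codon varied in 42.9% of the convergent CDR3s with DWG in DN T cells, 46.5% in CD8 and 40.6% in CD4, and the aspartate codon in 14.9%, 22.3% and 28.1%. When all clonotypes present in more than 1 library were left out, which was done after seeing the data, DWG was in 35.7% of the 143 remaining convergent CDR3s of DN T cells and 10.8% of the 658 of CD8. In CD4 T cells it was then in 2.58% of 310, and the difference to the other CDR3s, 1.97 percentage points before, was -1.38.

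By clone size the members were ordinary to slightly large. The median was 3 reads for convergent and for other clonotypes in CD4 and DN T cells, and 3 against 2 reads in CD8. Means were 8.21 against 6.16 reads in CD4, 4.48 against 3.69 in CD8 and 12.7 against 9.35 in DN T cells. The largest members had 201, 140 and 541 reads, while the largest other clonotypes had 1484, 3260 and 1374. Of the 100 largest clonotypes 8, 11 and 10 were convergent. In CD8 T cells the share that was convergent went from 7.52% at 2 reads to 12.1% at 3 to 9 reads and 19.8% at 10 to 99 reads. In CD4 it went from 5.16% to 7.10% and 9.71%, and in DN T cells from 5.27% to 6.22% and 7.26%. At 100 or more reads it was 9.76% of 82 clonotypes in CD4, 6.06% of 33 in CD8 and 11.2% of 206 in DN T cells. The largest sequence of a CDR3 had a median of 2, 1.5 and 2 times the reads of the next.

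The members with the most reads were seldom those with the most sequences. In CD4 T cells a CDR3 of 15 residues with TRBV13-1 and TRBJ2-1 came first, with 288 reads in 2 sequences of 180 and 108 reads. It was also convergent in CD8 T cells with 16 reads and in DN with 190. A CDR3 of 15 residues with TRBV1 and TRBJ1-3 followed, with 208 reads in CD4, 71 in CD8 and 384 for DN T cells, in 2 sequences each. In CD8 T cells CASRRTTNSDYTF, with TRBV13-3 and TRBJ1-2, came first with 176 reads in 2 sequences of 140 and 36 reads. It had 5 reads in CD4 and none in DN T cells. In CD8 a CDR3 of 15 residues with TRBV13-2 and TRBJ2-1 had 142 reads, of which 139 were of a single sequence.

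The CDR3 with the most reads in the DN library was also among the 3 with 6 sequences, the highest number there. It had 15 residues with TRBV13-2 and TRBJ2-5, contained DWG, and reached 870 reads in 6 sequences, the largest of 433 and the smallest of 8 reads. The same CDR3 had 6 sequences and 113 reads in CD8 T cells, and 2 sequences and 201 reads in CD4. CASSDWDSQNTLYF with TRBV13-3 and TRBJ2-4 had 581 reads in DN T cells, 541 of them in a single sequence, with 96 reads in CD8 and 31 in CD4. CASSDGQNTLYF with the same genes had 578 reads in 2 more even sequences of 388 and 190 reads, and 76 and 15 reads in CD8 and CD4. The remaining CDR3s chosen by their number of sequences were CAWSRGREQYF and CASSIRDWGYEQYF. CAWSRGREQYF (TRBV31, TRBJ2-7) had 6 sequences and 29 reads in CD4 T cells and none in the others. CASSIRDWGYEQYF (TRBV19, TRBJ2-7) had 6 sequences and 56 reads in CD8 and 2 sequences and 11 reads in DN T cells.

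Convergent CDR3s were found in another library more often than other CDR3s. A CDR3 counted as found when the same amino acid sequence, V gene and J gene had a clonotype of 2 or more reads there. Of all CDR3s, 11.3% of those of CD4 T cells were in CD8 and 10.1% in DN, 7.54% of those of CD8 were in CD4 and 16.3% in DN, and 9.42% of those of DN were in CD4 and 22.8% in CD8. Of the 473 convergent CDR3s of CD4 T cells, 26.8% (23.1 to 31.0) were in CD8 and 17.1% (13.998 to 20.8) in DN. Of the 1059 of CD8 T cells, 21.9% (19.5 to 24.5) were in CD4 and 34.0% (31.2 to 36.9) in DN. Of the 478 of DN T cells, 28.2% (24.4 to 32.4) were in CD4 and 54.2% (49.7 to 58.6) in CD8. Convergent CDR3s have more sequences with which to be found, and sharing rose with their number. In any other library, 14.7% of CD4 CDR3s with 1 sequence, 31.4% with 2 and 36.0% with 3 or more were found, against 18.6%, 40.4% and 61.8% in CD8 and 25.5%, 58.0% and 76.3% in DN T cells.

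**Figure D5:**
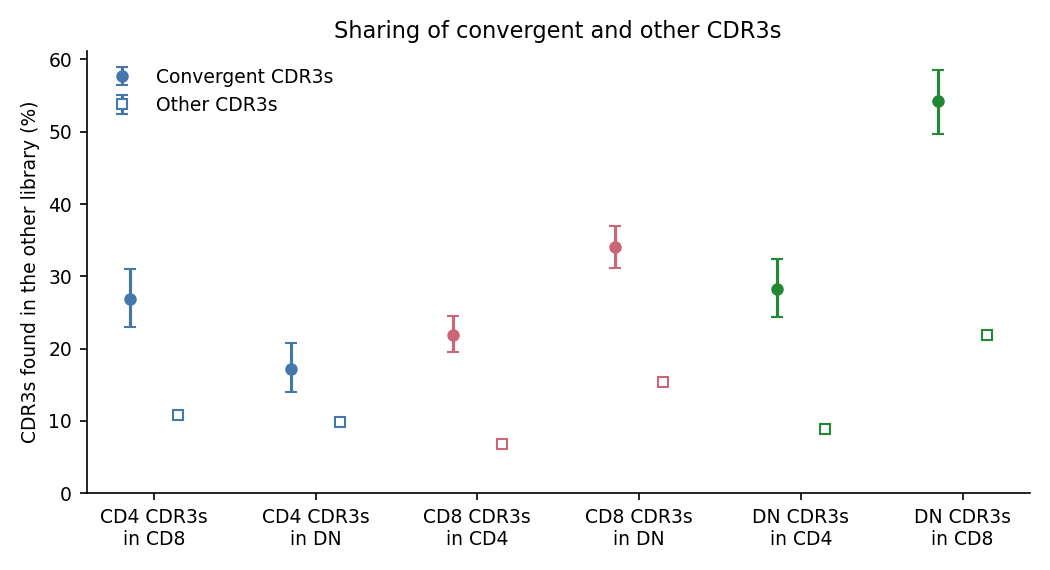
Percent of the CDR3s of a library found in another library, for convergent CDR3s (filled circles) and other CDR3s (open squares). Bars are 95% Wilson intervals, which are smaller than the symbols for other CDR3s. Convergent CDR3s were higher in all 6 comparisons, with the widest gap in percentage points for those of DN T cells found in CD8, at 54.2% against 21.8%.

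Sharing was also compared within a range of reads. At 4 to 9 reads summed over a CDR3, 28.5% (23.2 to 34.5) of the convergent and 14.7% (13.6 to 15.8) of the other CDR3s of CD4 T cells were found in another library. The values were 41.2% (35.1 to 47.4) and 24.5% (23.2 to 25.8) in DN T cells. Those of CD8 were 36.5% (33.1 to 40.0) and 32.5% (31.0 to 34.0), so within this range the difference was small there. Reads inside the range were not matched between convergent and other CDR3s, and the part of reads in the difference was not tested.

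Part of the sharing was through different nucleotide sequences alone, that is, no sequence of the CDR3 with these genes and 2 or more reads was common to both libraries. Of the convergent CDR3s of CD4 T cells, 7.82% were shared in this way with CD8 and 3.59% with DN, against 2.78% and 1.59% of the others. For CD8 T cells the values were 7.08% with CD4 and 6.33% with DN, against 1.72% and 1.74%. For DN T cells they were 5.65% with CD4 and 6.07% with CD8, against 1.42% and 2.63%. Taken over the shared CDR3s alone convergent and other CDR3s were closer, and for DN in CD8 this was 11.2% of the convergent and 12.03% of the other shared CDR3s. Single clonotypes, matched by nucleotide sequence and genes, differed less. Of the convergent clonotypes of DN T cells 30.1% (27.4 to 33.0) were in CD8 against 19.2% (18.6 to 19.8) of the others, and at exactly 2 reads 11.1% (8.30 to 14.7) against 5.82% (5.28 to 6.41). At exactly 2 reads the other comparisons were closer, with 3.52% against 2.70% for DN clonotypes in CD4, 6.56% against 5.62% for CD4 in CD8, 3.11% against 2.46% for CD8 in CD4 and 8.13% against 7.64% for CD8 in DN, or turned, with 4.64% against 7.41% for CD4 in DN. Each table lists a nucleotide CDR3 once with 1 V gene, and this gene was not always the same. When the nucleotide CDR3 of a convergent clonotype was also in another library, at any number of reads, the V gene differed in 5.49% to 19.8% of cases over the 6 comparisons, against 5.69% to 14.9% for other clonotypes. At all read numbers 7.68% (6.22 to 9.44) of the convergent clonotypes of CD4 and 8.24% (7.82 to 8.69) of the others were found in DN T cells. In the other direction 12.02% (10.2 to 14.1) of the convergent clonotypes of DN and 7.43% (7.04 to 7.85) of the others were found in CD4.

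In CD8 and CD4 T cells convergent CDR3s with DWG were shared more often than those without it. Of the 157 in CD8, 68.2% (60.5 to 74.9) were found in DN, against 28.0% (25.2 to 31.1) of the 902 without it. In CD4 35.7% and 19.5% of them were found. Of the 32 in CD4, 65.6% (48.3 to 79.6) were found in CD8 and 56.2% (39.3 to 71.8) in DN, against 24.04% (20.3 to 28.2) and 14.3% (11.3 to 17.9) of the 441 without it. Among DN T cells the tripeptide made little difference, with 57.1% (49.6 to 64.4) and 52.6% (47.0 to 58.1) found in CD8, and 26.2% and 29.4% found in CD4. Sharing of CDR3s with DWG that were not convergent was not examined.

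Most convergent CDR3s were so in only 1 library, and most CDR3s of any kind were likewise missing from a given other library. At most 22.8% of all CDR3s of a library were found in a given other one. The share of all CDR3s present in exactly 1 library was not computed. CD4 and CD8 T cells had 47 convergent CDR3s in common, which were 9.94% of the convergent CDR3s of CD4 and 4.44% of those of CD8. CD4 and DN T cells had 30, or 6.34% and 6.28%. CD8 and DN T cells had 119, or 11.2% and 24.9%. Each of these shares was above that of other CDR3s. Of the other CDR3s of CD4, 1.23% were convergent in CD8 and 0.696% in DN T cells. For CD8 the values were 0.361% in CD4 and 0.631% in DN, and for DN 0.316% in CD4 and 1.49% in CD8. Of the 1837 convergent CDR3s, 1687 were convergent in exactly 1 library, 127 in 2 and 23 in all 3. Of the 23, 8 used TRBV13-1, 4 used TRBV1 and 8 used TRBJ2-7. TRBJ2-7 was thus used by 34.8% of the 23. Among CDR3s convergent in 1 or 2 libraries the share was 21.3% (CD4), 32.1% (CD8) and 37.6% (DN), so it was not higher throughout. With reads summed over a CDR3, the CD4 median was 8 for the 23, against 9 for those convergent in 1 or 2 libraries. The CD8 medians were 21 against 7 reads, and the DN medians 63 against 9. When the libraries were pooled, 2639 CDR3s had at least 2 sequences, and 802 of these were convergent only across libraries.

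The α chain gave no comparison. With 78, 93 and 73 in-frame TRA clonotypes in CD4, CD8 and DN T cells, 0 convergent CDR3s were found in each and only 6, 1 and 5 of the clonotypes reached 2 reads.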

How the data were processed

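TCR sequencing of T-cell subsets (CD4, CD8, DN) sorted from 1 MRL.lpr spleen gave 3 libraries, without replicates. The authors prepared them with the Takara SMARTer Mouse TCRα/β kit and assembled clonotypes with MiXCR, whose version, settings and germline library are not given in the sources used here. The deposited tables hold a read count per clonotype, which is not normalized, and its fraction of the reads of the table. The fraction was checked and was the count over the table's total. They also hold the nucleotide and amino acid CDR3 and the best V, D and J gene.

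In-frame TRB clonotypes, without stop codons, with at least 2 reads entered. They came from 133667 TRB reads for CD4, 150874 for CD8 and 194290 for DN T cells. At these depths a count of 0 (3 counts of the reads kept) allows shares of up to 0.00295%, 0.00324% and 0.00183%. With 1 library per subset no test was run, and shares have 95% Wilson intervals that cover counting error only. Convergent clonotypes were set against all other clonotypes of the same library. Sequences of a CDR3 were each compared with its largest. Germline ends of a V or J gene were extended base by base inward from the end of the CDR3. A base was added while over 50%, and at least 50, of the clonotypes that matched all earlier bases shared it. CDR3s named were, per library, the 3 with the most nucleotide sequences and the 3 with the most reads, and the 5 with the most sequences among those convergent in all 3 libraries. V genes named by rank were the 3 highest and 3 lowest of those with at least 200 clonotypes in every library. CDR3s of 15 or more residues, and 2 of 14, are given by genes and length. The members, and the rules for naming, were chosen with earlier results of these data known, and other V genes and DWG were singled out after the members were seen. Older V gene names are from the RefSeq gene list of GRCm38.p6, used for names alone. There were 7 alternatives planned and 1 added after seeing the data. The rule for members was tested on simulated data. Python 3.11.15, pandas 2.3.3, NumPy 2.4.6, statsmodels 0.14.6 and matplotlib 3.10.9 were used.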

Additional observations from a re-analysis of the deposited data

Results flagged for a closer look

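Some genes were more common among convergent than other clonotypes in 1 library and less common in another. TRBD2 differed by -4.68 percentage points in CD4, by 4.47 in CD8 and by 14.3 in DN T cells. Clonotypes without a D gene enter these shares, and in CD4 they were 36.4% of the convergent and 26.5% of the other clonotypes. TRBD1 was also lower among the members in CD4, at 39.7% against 44.9%. TRBJ1-1 differed by 2.88 percentage points in CD4 and by -3.21 in CD8 T cells. TRBV26 differed by 3.73 percentage points in CD4 and by -1.05 in CD8 T cells. Of these, TRBJ1-1 in CD4 and TRBV26 in CD8 changed sign under an alternative, and TRBD2 in CD8 was 0.867 percentage points at a minimum of 5 reads. The TRBD2 differences of CD8 and DN T cells overlap with those of DWG, since TRBD2 was assigned to most clonotypes with DWG. With 1 library per subset, none of these differences between subsets was tested.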

How the results depend on the processing

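The numbers and shares of convergent CDR3s depended on the read minimum and on the definition. Members were shorter on average than other clonotypes under all 8 alternatives in the 3 libraries. Values are given in the order CD4, CD8 and DN T cells. With a minimum of 1 read there were 2048, 4824 and 1834 convergent CDR3s, 11.01%, 14.5% and 10.5% of clonotypes were convergent, the length differences were -0.37, -0.45 and -0.23 residues, and 42.4% of the convergent CDR3s of CD4 and 67.4% of those of DN T cells were in another library. With a minimum of 5 reads there were 95, 87 and 90, the shares were 4.66%, 5.83% and 3.56%, the length differences -0.43, -0.66 and -0.24, sharing of CD4 T cells was 13.7%, and the TRBJ1-1 difference in CD4 T cells was -2.36 percentage points. With at least 2 differing bases required there were 241, 505 and 238 with shares of 3.61%, 5.07% and 3.23%, sharing of CD8 T cells was 47.7%, and the TRBJ1-1 difference in CD4 T cells was -0.0495. With the amino acid CDR3 alone the shares were 9.82%, 16.7% and 9.35%, sharing was 48.2%, 54.2% and 69.7%, CD8 T cells had 1724 convergent CDR3s, the length differences were -0.68 in CD8 and -0.47 in DN, and in CD8 T cells the TRBV31 difference was -0.85 and the TRBV26 difference 0.53 percentage points.

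At equal total in-frame reads, with the mean of 20 draws of 126738 reads and reads per clonotype not equalised, 9.08% of CD8 and 5.06% of DN clonotypes were convergent, and DN T cells had 293 convergent CDR3s, of which 65.1% were in another library. With possible read errors merged the share of DN T cells was 5.58%, and with clonotypes left out that had 10 times more reads in another library the sharing of CD4 T cells was 26.3%. With only the clonotypes of a single library, chosen after seeing the data, 310, 658 and 143 convergent CDR3s remained, the shares were 5.15%, 7.23% and 2.78%, the length difference of DN T cells was -0.27, the DWG difference of CD4 T cells was -1.38 percentage points, and sharing, then by different nucleotide sequences by construction, was 9.03%, 12.6% and 12.6%. CD8 T cells kept the highest share of convergent clonotypes under all 8 alternatives. None of these took the number of possible pairs of clonotypes into account, and CD4 T cells were highest on both pair measures. Apart from those of construction, causes were not tested. No paired analysis was possible because each subset had 1 library. The read depth, with 52.2%, 65.1% and 56.1% of the convergent CDR3s at 2 reads in their second sequence, limits the count of members.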
